A study of Mus musculus with 9 samples.

Results

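The inflammasome and interleukin 1 axis was followed in bone marrow neutrophils through 10 genes: Il1b, Il1rn, Il1r2, Il1rap, Nlrp3, Pycard, Casp1, Casp4, Gsdmd and Ninj1. They were taken by name from a table of 7197 genes, and all 10 were present and passed the filter on low values. Of these, 9 belong to the pathway by textbook knowledge, whereas Ninj1 was selected on its normalized counts, which had been seen to be lower in RragcS74N/+ neutrophils, so its genotype difference is given as a description without a test. Rragc encodes RagC, one of the Rag GTPases that relay nutrient sufficiency to the kinase complex mTORC1, and the S74N knock-in replaces a serine by an asparagine and yields an active form of the protein. Libraries of 3′ ends of polyadenylated RNA were made from sorted CD45+ CD11b+ Ly6G+ cells of mice aged 2 months, for which no treatment is given: 5 Rragc+/+ libraries and 4 RragcS74N/+ libraries with 1 edited allele in the whole animal, not in neutrophils alone. The labels name neither the animal, the sex nor the strain behind a library, so p-values measure the spread between these libraries.

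Interleukin 1β is a fever-inducing cytokine that neutrophils and monocytes make as an inactive precursor. Sensors such as NLRP3 recruit the adaptor ASC, encoded by Pycard, which gathers caspase-1 into an inflammasome, and caspase-1 cleaves both the precursor and gasdermin D. Mouse Casp4 encodes caspase-11, which binds bacterial lipopolysaccharide in the cytosol and also cleaves gasdermin D. The freed end of gasdermin D forms pores in the plasma membrane, and ninjurin 1, encoded by Ninj1, clusters in the membrane of dying cells and tears it open. Outside the cell, IL1RAP is the co-receptor that completes the signaling complex, the antagonist encoded by Il1rn occupies the receptor without signaling, and IL1R2 is a decoy that binds the cytokine without passing a signal on.

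The libraries held 1214295 to 1973957 recovered reads over the listed genes, the fewest in Rragc+/+ replicate 2, and values below are normalized counts, that is, reads divided by the size factor of the library. All 7 neutrophil markers examined were present, with sums of 92442 to 147456 in Rragc+/+ and 91957 to 161207 in RragcS74N/+ libraries. None of 6 B cell markers and none of 5 basophil and mast cell markers was among the listed genes, so no level is given for them. Of 10 monocyte markers 3 were listed (Csf1r, Ly6c2 and Cd14), summing to 2220 to 3425 and 2218 to 3997, of 7 T and NK cell markers 1 was listed, from 14.5 to 28.9 and from 14.6 to 18.8, and of 7 erythroid markers 6 were listed, summing to 1090 to 5585 and 378 to 2147, in Rragc+/+ and RragcS74N/+ respectively. Of 5 eosinophil markers 4 were listed, and their sum was 52.5 to 67.8 in 6 libraries, whereas it was 136 in Rragc+/+ replicate 5, 218 in RragcS74N/+ replicate 2 and 216 in RragcS74N/+ replicate 4. The edited gene itself measured 71.0 ± 10.3 (SD, n = 5) and 65.8 ± 9.52 (SD, n = 4) normalized counts, a log2 change of -0.11, and a gene-level count cannot show a substitution in the coding sequence.

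Sequences before the start sites of 6 genes are shown because these genes carry the patterns described here: the most abundant transcript (Il1b), the pairs whose counts varied together (Nlrp3 with Il1rap, and Pycard with Casp1) and the gene whose genotypes separated (Ninj1). Each is the 250 bases before an annotated start, 5′ to 3′ on the strand of the gene, from RefSeq on GRCm38.p6, a build that differs from the one used for the counts. They lie at chr2:129371140-129371389 (minus strand) for Il1b, chr11:59541319-59541568 for the more upstream of 2 starts of Nlrp3, chr16:26581455-26581704 for Il1rap, chr7:127993868-127994117 (minus strand) for Pycard, chr9:5298267-5298516 for Casp1 and chr13:49187279-49187528 for Ninj1. Capitals mark matches on either strand to the kappaB consensus, to TATAAA or to CACGTG, the palindrome bound by TFEB and other E-box factors.
Il1b: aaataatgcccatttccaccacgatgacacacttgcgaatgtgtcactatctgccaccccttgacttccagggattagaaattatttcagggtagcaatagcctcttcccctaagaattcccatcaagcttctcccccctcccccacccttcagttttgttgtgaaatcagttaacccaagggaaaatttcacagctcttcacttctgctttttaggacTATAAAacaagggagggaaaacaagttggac
Nlrp3: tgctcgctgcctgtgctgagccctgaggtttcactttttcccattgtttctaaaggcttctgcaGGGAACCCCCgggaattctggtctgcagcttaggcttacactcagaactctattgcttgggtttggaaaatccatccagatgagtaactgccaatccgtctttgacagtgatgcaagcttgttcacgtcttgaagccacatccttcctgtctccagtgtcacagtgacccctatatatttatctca
Il1rap: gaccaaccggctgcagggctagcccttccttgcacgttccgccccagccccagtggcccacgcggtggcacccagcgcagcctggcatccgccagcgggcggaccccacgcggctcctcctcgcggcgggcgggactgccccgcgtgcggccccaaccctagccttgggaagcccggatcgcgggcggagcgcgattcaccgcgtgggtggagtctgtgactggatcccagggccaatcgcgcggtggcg
Pycard: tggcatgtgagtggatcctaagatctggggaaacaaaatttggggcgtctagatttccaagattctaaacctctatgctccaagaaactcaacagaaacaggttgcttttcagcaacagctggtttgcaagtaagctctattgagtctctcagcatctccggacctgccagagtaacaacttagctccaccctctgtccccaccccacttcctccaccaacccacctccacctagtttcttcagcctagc
Casp1: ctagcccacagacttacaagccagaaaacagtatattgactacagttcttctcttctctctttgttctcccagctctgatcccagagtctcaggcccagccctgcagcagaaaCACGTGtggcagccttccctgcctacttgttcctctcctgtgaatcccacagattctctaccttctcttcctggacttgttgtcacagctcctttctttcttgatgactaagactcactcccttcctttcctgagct
Ninj1: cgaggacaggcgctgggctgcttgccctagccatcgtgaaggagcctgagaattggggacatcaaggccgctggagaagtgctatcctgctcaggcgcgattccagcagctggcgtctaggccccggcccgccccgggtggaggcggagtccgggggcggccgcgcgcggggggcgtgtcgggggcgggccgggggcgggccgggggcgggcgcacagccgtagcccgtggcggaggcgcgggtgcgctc

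Of the 10 genes, 9 had an entry in the promoter table. The Il1b window held TATAAA at -31 to -26 from the start, a motif found in 12.3% of 32536 promoters of this length. A kappaB match, held by 7.28% of promoters, stood at -186 to -177 of Nlrp3 (GGGAACCCCC), and Casp4 held GGGATTTCCC at -92 to -83, with GGGGATTTCC overlapping it by all but 1 base, and GGAAGTCCCC at -39 to -30 of the more upstream of its 2 starts. CACGTG, held by 6.04% of promoters, was at -137 to -132 of Casp1 and at -238 to -233 and -195 to -190 of Il1r2. GAGGAA, the core read by the myeloid factor PU.1, was in 23.4% of promoters and in those of Pycard, Casp1 and the more downstream start of Nlrp3, which is not printed here, TGANTCA (AP-1) was in 6.73% and in that of Il1rn, and TTGCNNAA (C/EBP) was in 9.57% and in that of Pycard. Neither pair that varied together shared a kappaB, TATAAA or CACGTG match within itself, Pycard and Casp1 both held GAGGAA, and the window of Ninj1, with 76.0% G and C, and that of Il1rap, with 74.4%, held none of the 6 motifs.

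The 10 transcripts covered a wide range of levels. These are counts of 3′ ends, which do not grow with transcript length, and so levels of different genes may be set side by side, although each gene is captured with its own efficiency. Il1b was the most abundant, with 1226 ± 182 normalized counts (SD over all 9 libraries), rank 141 of 7197 genes. Il1rn followed at 555 ± 103. The lowest Il1b library (935) lay above the highest Il1rn library (730), and the lowest Il1rn library (399) above the highest of Casp1 (394). Casp1 (229 ± 82.2) and Il1r2 (218 ± 33.4) did not differ beyond their spread, nor did Ninj1 (116 ± 42.0), Casp4 (97.7 ± 23.3) and Pycard (86.6 ± 24.0). Gsdmd (55.5 ± 22.2), Nlrp3 (47.4 ± 15.5) and Il1rap (31.9 ± 8.95) were the least abundant and overlapped one another. The cytokine and its soluble antagonist stood above the machinery that matures and releases the cytokine, and the sensor Nlrp3 was among the scarcest of the set.

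**Figure D1:**
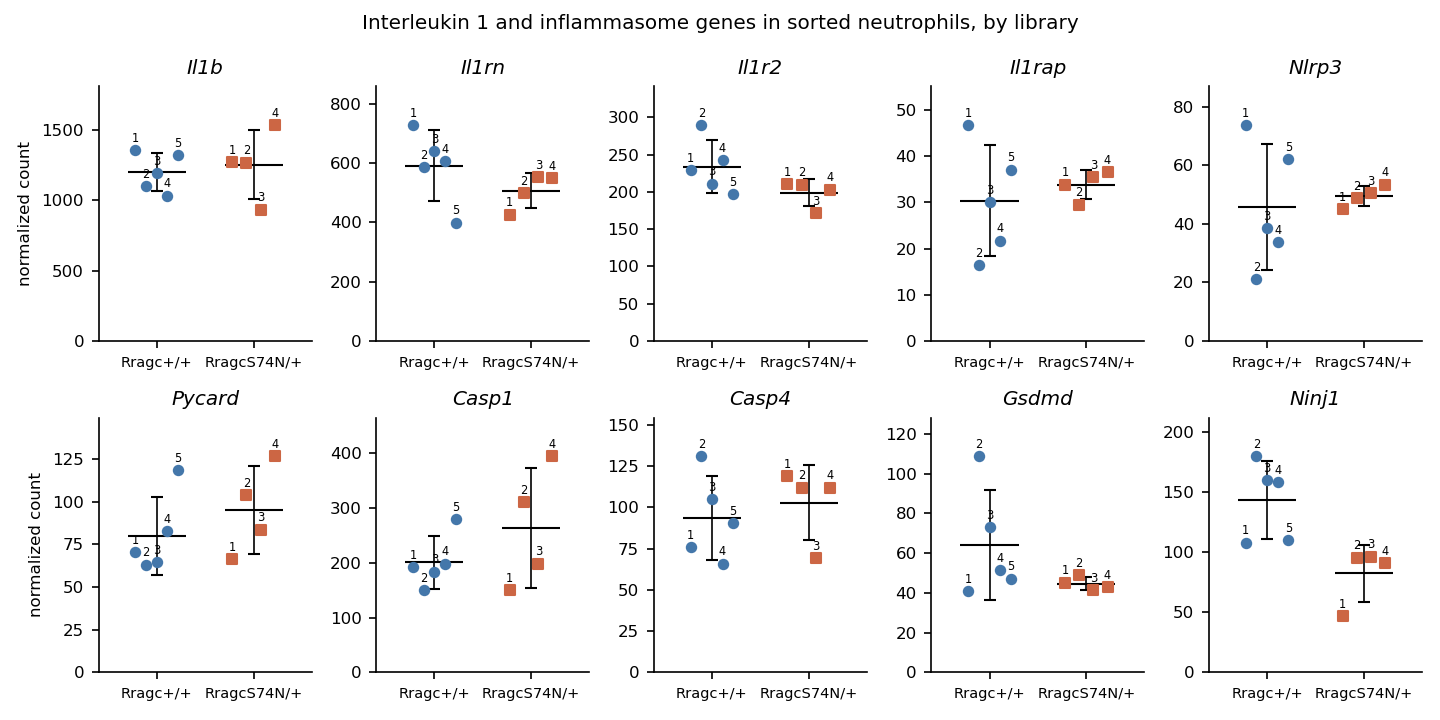
Normalized counts (y axis, linear, from 0) of the 10 genes in each library of Rragc+/+ (circles) and RragcS74N/+ (squares) neutrophils, with replicate numbers; the long bar is the mean and the whiskers are 1 SD (n = 5 and 4). Ninj1 is the panel in which the genotypes do not overlap, with 108 the lowest Rragc+/+ and 96.4 the highest RragcS74N/+ value.

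None of the 9 genes other than Ninj1 differed between genotypes by more than the spread between libraries. Across the table, limma on log2(value + 1) called 0 of 6673 genes (0.0%) at an adjusted p under 0.05, the smallest adjusted p being 0.713, and edgeR and DESeq2 on the recovered reads also called 0. At an unadjusted p under 0.05 it called 388 genes (5.81%), of which 254 (3.81%) were lower in RragcS74N/+. Of the 9 genes other than Ninj1, 0 passed the adjusted threshold with each of the 3 tools, and the smallest unadjusted p of limma among them was 0.119. In 113 genes (1.69%) the genotypes did not overlap, 68 (1.02%) of them lower in RragcS74N/+, and of the axis only Ninj1, selected for being lower, was among them. By direction, 3 of the 9 other genes had a lower mean in RragcS74N/+, as did 46.6% of all genes tested. The median log2 change of all 10 genes, Ninj1 included, was 0.10, and that of all genes tested 0.02.

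The cytokine overlapped between genotypes. Il1b measured 1357, 1104, 1196, 1035 and 1323 normalized counts in Rragc+/+ replicates 1 to 5 and 1275, 1269, 935 and 1538 in RragcS74N/+ replicates 1 to 4. The highest and the lowest library were both RragcS74N/+, and the means were 1203 ± 138 (SD, n = 5) and 1254 ± 247 (SD, n = 4). The log2 change was 0.05 with a 95% interval of -0.32 to 0.42 (limma, adjusted p = 0.940), so that changes from 0.798-fold to 1.33-fold lay within it. In this bulk measurement, fewer cells with a transcript and less RNA per cell cannot be told apart.

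The 3 genes that restrain or complete interleukin 1 signaling also overlapped. Il1rn, the antagonist, measured 730, 587, 640, 607 and 399 in Rragc+/+ and 426, 499, 553 and 551 in RragcS74N/+. Rragc+/+ replicate 5 held the lowest value of all and the other Rragc+/+ libraries lay above every RragcS74N/+ library. The log2 change was -0.20 (95% interval -0.60 to 0.20; limma, adjusted p = 0.751). Il1r2, the decoy receptor, measured 229, 290, 211, 243 and 197 against 210, 209, 172 and 203, and only Rragc+/+ replicate 5 (197) fell within the RragcS74N/+ range. Its log2 change was -0.23 (95% interval -0.58 to 0.13; limma, adjusted p = 0.724). Il1rap, the co-receptor, measured 46.8, 16.4, 30.0, 21.7 and 37.1 against 33.8, 29.5, 35.4 and 36.6, so that the RragcS74N/+ libraries lay close together inside the Rragc+/+ range. The log2 change of Il1rap was 0.24 (95% interval -0.36 to 0.83; limma, adjusted p = 0.794), from 14 to 71 reads per library, and it was 0.05 without Rragc+/+ replicate 2 or after removal of the trend on 3′ GC content, and 0.41 without Rragc+/+ replicate 1.

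Within a library, the balance of antagonist to cytokine was 0.538, 0.531, 0.535, 0.586 and 0.302 Il1rn reads per Il1b read in Rragc+/+, and 0.334, 0.393, 0.591 and 0.358 in RragcS74N/+. The ratio was nearly constant in 4 Rragc+/+ libraries and low in replicate 5, and it was low in 3 of the 4 RragcS74N/+ libraries, with RragcS74N/+ replicate 3 the highest of all. The decoy exceeded the co-receptor in every library, by 4.90 to 17.7 Il1r2 reads per Il1rap read in Rragc+/+ and 4.85 to 7.10 in RragcS74N/+, the highest ratio being that of Rragc+/+ replicate 2, where Il1rap rested on 14 reads.

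Neither the sensor nor the adaptor passed the test. Nlrp3 measured 73.8, 21.0, 38.4, 33.8 and 62.2 in Rragc+/+ and 45.1, 48.8, 50.5 and 53.3 in RragcS74N/+. As with Il1rap, the 4 RragcS74N/+ values sat inside a broad Rragc+/+ range, and the log2 change of 0.24 (95% interval -0.41 to 0.89; limma, adjusted p = 0.809) became -0.0033 without Rragc+/+ replicate 2 and 0.44 without Rragc+/+ replicate 1. Pycard, the adaptor, measured 70.5, 63.1, 64.7, 82.8 and 118 against 66.3, 104, 83.6 and 126, with a log2 change of 0.25 (95% interval -0.26 to 0.75; limma, adjusted p = 0.756), which was 0.10 without RragcS74N/+ replicate 4 and 0.41 without RragcS74N/+ replicate 1.

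The caspases spread widely within each genotype. Casp1 measured 192, 150, 184, 199 and 280 in Rragc+/+ and 151, 310, 198 and 394 in RragcS74N/+, a log2 change of 0.32 (95% interval -0.25 to 0.89; limma, adjusted p = 0.741). It was 0.09 without RragcS74N/+ replicate 4 and 0.56 without RragcS74N/+ replicate 1, where the unadjusted p was 0.0456 and the adjusted p 0.736 (limma). RragcS74N/+ replicate 1 was the lowest of its genotype for Casp1 (151), so leaving it out enlarges the difference by construction. The 3 highest libraries for Casp1 and for Pycard were RragcS74N/+ replicates 4 and 2 and Rragc+/+ replicate 5, the same 3 in which the eosinophil markers were highest and in which the neutrophil markers were highest as well (161207, 151463 and 147456). In the same order, markers of mature neutrophils summed to 52375, 50176 and 45053 there, and to 36106 to 45231 in the other 6 libraries. Those of immature neutrophils summed to 35056, 30554 and 33721, and to 21647 to 31358 in the other 6. The part of eosinophil content, neutrophil content or neutrophil maturation in the Casp1 and Pycard values was not tested. In the other 6 libraries Casp1 averaged 181 (n = 4) and 174 (n = 2) normalized counts, a log2 difference of -0.06, and Pycard 70.3 and 75.0, a log2 difference of 0.09, and as the 3 libraries set aside are also the highest for both genes, these values are a description. In the same 6 libraries the log2 differences of the other genes were 0.37 (Il1rap), 0.33 (Nlrp3), -0.005 (Casp4), -0.10 (Il1b), -0.34 (Il1r2), -0.39 (Il1rn), -0.56 (Gsdmd) and -1.13 (Ninj1, chosen for being lower), likewise a description. The RragcS74N/+ side of this split is replicates 1 and 3, which hold the lowest RragcS74N/+ values of Ninj1 (47.1) and Casp4 (69.3) respectively. Casp4 measured 75.7, 131, 105, 65.9 and 90.2 against 119, 112, 69.3 and 112, with 3 RragcS74N/+ libraries close to one another and replicate 3 below them, and its log2 change was 0.15 (95% interval -0.35 to 0.64; limma, adjusted p = 0.850).

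The genes of pore formation and membrane rupture were Gsdmd and Ninj1. Gsdmd, the pore-forming substrate, measured 40.8, 109, 73.1, 51.4 and 47.1 in Rragc+/+ and 45.1, 48.8, 41.4 and 42.8 in RragcS74N/+. All RragcS74N/+ values lay in the lower part of the Rragc+/+ range, and the log2 change was -0.43 (95% interval -0.98 to 0.12; limma, adjusted p = 0.713, unadjusted p = 0.119), or -0.22 without Rragc+/+ replicate 2, the library with the highest value. Without Rragc+/+ replicate 1, the library with the lowest value, it was -0.57 (limma, unadjusted p = 0.0434, adjusted p = 0.502). Leaving out the lowest library of the higher genotype enlarges the difference by construction, so this value is a description. In that setting 641 genes of the whole table had an unadjusted p under 0.05 (limma), against 388 with all libraries.

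Ninj1 measured 108, 180, 160, 158 and 110 in Rragc+/+ and 47.1, 95.6, 96.4 and 90.9 in RragcS74N/+. Every RragcS74N/+ library was below every Rragc+/+ library, the nearest values being 96.4 and 108, and RragcS74N/+ replicate 1 was far below the other three. The means were 143 ± 32.4 (SD, n = 5) and 82.5 ± 23.7 (SD, n = 4), a log2 change of -0.82, or 0.568-fold, and the gene was chosen by this contrast. The change was -0.57 without RragcS74N/+ replicate 1 and -0.73 without Rragc+/+ replicate 2. The 3′ end of Ninj1 was the richest in G and C of the 10 genes, with 57.2% over its last 500 bases against a median of 43.0% over genes, followed by Gsdmd with 53.4%. After removal of the trend of each library on this GC content the Ninj1 change was -0.51 and the genotypes overlapped, and that of Gsdmd was -0.22. Per Gsdmd read, Ninj1 gave 1.66 to 3.08 reads in Rragc+/+ and 1.04 to 2.33 in RragcS74N/+, and these ratios overlapped.

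**Figure D2:**
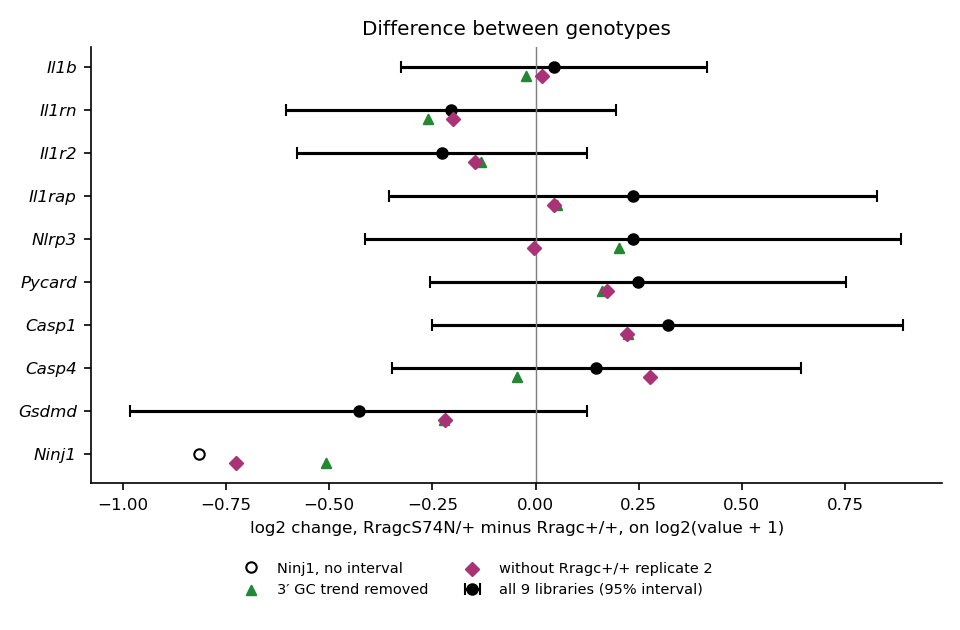
Log2 change (x axis, RragcS74N/+ minus Rragc+/+ on the log2(value + 1) scale) of the 10 genes: black points and bars are the estimate over all 9 libraries and its 95% interval, triangles the estimate after removal of the 3′ GC trend and diamonds that without Rragc+/+ replicate 2. All 9 intervals drawn include 0, and Ninj1 (open point, -0.82) has no interval because it was included for this difference.

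The spread between libraries exceeded counting error, taken from the read numbers, for 10 of 10 genes in Rragc+/+ and for 7 of 10 in RragcS74N/+. The exceptions in RragcS74N/+ were Il1rap, Nlrp3 and Gsdmd, whose coefficients of variation were 9.18%, 6.94% and 7.22% against counting values of 16.0%, 13.3% and 14.0%. In Rragc+/+ the same 3 genes had the largest coefficients of variation of the set, 39.8%, 47.1% and 43.0%. Whether the spread of these genes differed between genotypes was not tested. Rragc+/+ replicate 2 was the lowest library for Nlrp3 and Il1rap as well as for Pycard and Casp1, although Casp1 there (150) was close to the next library (151), and the highest for Gsdmd, Casp4, Il1r2 and Ninj1.

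How the genes varied together was examined over the 9 libraries for all 45 pairs, of which 20 had a positive and 25 a negative Pearson's r. After adjustment over the 45 pairs, 2 pairs passed, and 6 passed at an unadjusted p under 0.05 (exact permutation test, two-sided). Il1rap and Nlrp3 rose and fell together with r = 0.97 and Spearman's rho = 0.95 (n = 9, exact permutation p = 9.37e-05 and 0.000353, adjusted 0.00422 and 0.00794). With genotype means removed r was 0.96, without Rragc+/+ replicate 2 it was 0.92 (exact permutation, adjusted p = 0.0419), and without the 2 libraries farthest from the median of Il1rap it was 0.89 (n = 7, exact permutation p = 0.0131). In the 6 libraries with low eosinophil markers it was 0.98 (n = 6). That split was made after the data were seen and keeps the highest and lowest libraries of both genes, so this value is a description. Both genes were lowest in Rragc+/+ replicate 2, with the fewest recovered reads (1214295), and highest in Rragc+/+ replicate 1, with the most (1973957). The r of this pair was not taken without Rragc+/+ replicate 1, and the part of depth in it was not tested. Libraries share broad trends, and so the same measure was taken against every gene. Il1rap ranked 8 among 6672 other genes by its r with Nlrp3, and 0.12% of genes had an r at least as high.

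Pycard and Casp1 had r = 0.94 and rho = 0.95 (n = 9, exact permutation p = 0.000265 and 0.000353, adjusted 0.00595 and 0.00794). The value was 0.94 with genotype means removed, 0.93 without Rragc+/+ replicate 2, 0.93 after removal of the 3′ GC trend and 0.91 without the 2 libraries farthest from the median of Pycard (n = 7, exact permutation p = 0.00238). Casp1 ranked 35 among 6672 genes by its r with Pycard, and 0.525% of genes had an r at least as high. Casp1 gave 2.27 to 3.12 reads per Pycard read in every library of both genotypes. Without the 3 libraries with high eosinophil markers, r was 0.76 (n = 6), but these libraries are also the highest in both genes and were set aside after the data were seen, which narrows the range, so this value is a description.

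**Figure D3:**
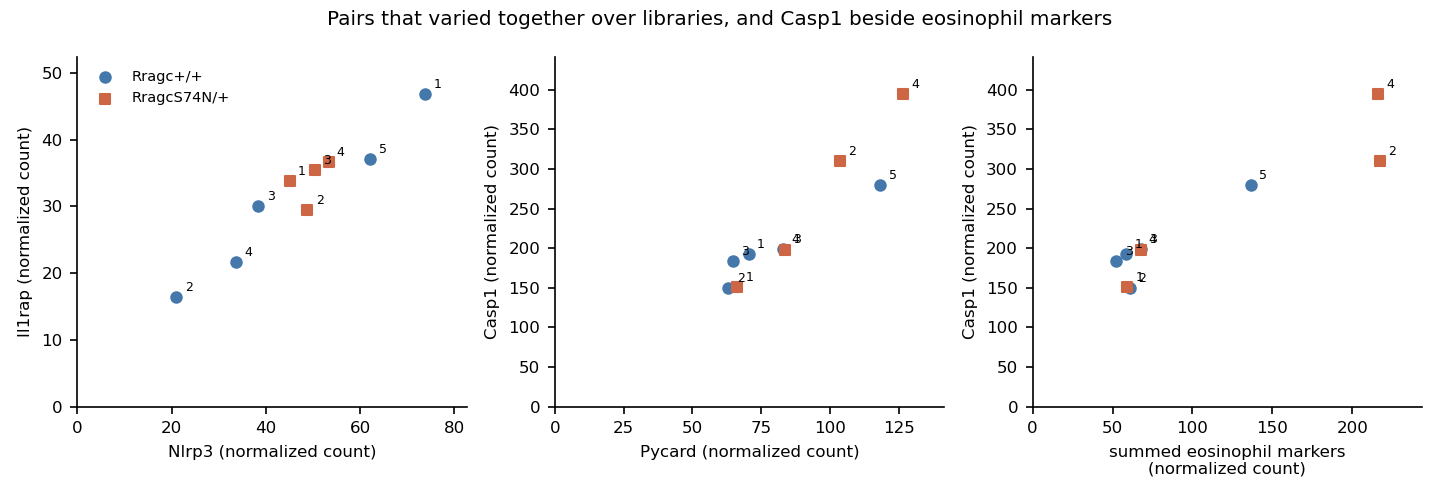
Left and middle, normalized counts of Il1rap against Nlrp3 and of Casp1 against Pycard in each library; right, Casp1 against the summed normalized count of eosinophil markers (circles, Rragc+/+; squares, RragcS74N/+; numbers, replicates; linear axes from 0). Il1rap and Nlrp3 lie along one line from Rragc+/+ replicate 2, with the fewest recovered reads, to Rragc+/+ replicate 1, with the most. The 3 libraries highest in Casp1 (280, 310 and 394) are those with eosinophil sums of 136, 218 and 216.

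The remaining relations did not pass. Nlrp3 and Gsdmd ran in opposite directions with r = -0.87 (n = 9, exact permutation, adjusted p = 0.0741). With genotype means removed (r = -0.88) the pair passed, but that permutation did not allow for the removal, so its p may be too small. Their r was -0.63 without Rragc+/+ replicate 2 and -0.57 without the 2 libraries farthest from the median of Nlrp3 (n = 7, exact permutation p = 0.194). Il1b and its antagonist Il1rn had r = -0.16, and Il1b and Nlrp3 had r = 0.49, a value that 14.2% of genes reached or passed with Il1b. Ninj1 had its highest r in the set with Gsdmd, 0.66, which was 0.50 with genotype means removed and 0.26 after removal of the 3′ GC trend.

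**Figure D4:**
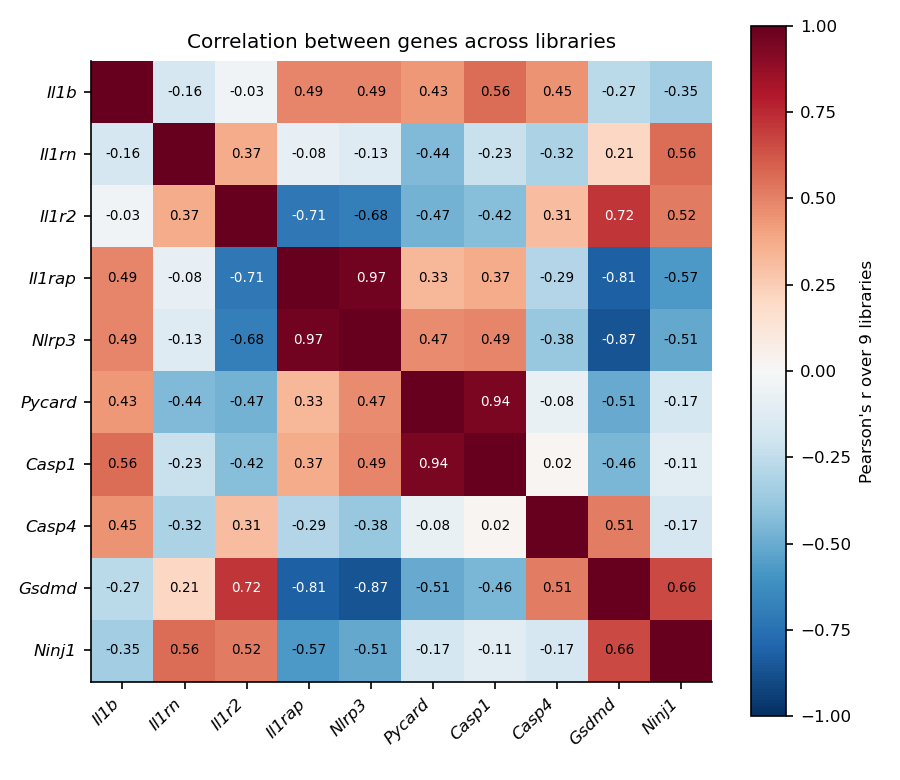
Pearson's r of log2(value + 1) over the 9 libraries for each pair of the 10 genes (color scale from -1 to 1, diagonal by definition 1). The 2 pairs that passed adjustment are Il1rap with Nlrp3 (0.97) and Pycard with Casp1 (0.94).

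Over genes whose mean reached 50, those whose pattern over the 9 libraries was most like that of a member were ranked by Pearson's r. The closest to Il1b were St3gal6 (r = 0.92), Wdr33 (0.90), Cd300lb (0.89), Amn1 (0.88) and Acot9 (0.88), of 3474 genes compared. The closest to Nlrp3 were Fbxl14 (0.98), Susd6 (0.98), the trafficking GTPase Rab1a (0.97), the MAP kinase kinase Map2k1 (0.97) and Hnrnpf (0.97), of 3475. The closest to Ninj1 were Neurl3 (0.94), Acot7 (0.94), Slc25a3 (0.94), Pgp (0.94) and Ncf1 (0.93), which encodes a subunit of the phagocyte NADPH oxidase, and these were 0.90, 0.94, 0.86, 0.98 and 0.87 with genotype means removed. After removal of the 3′ GC trend they were 0.90, 0.78, 0.81, 0.86 and 0.84. In the same orders, the values after that removal were 0.89, 0.74, 0.83, 0.81 and 0.82 for Il1b and 0.97, 0.98, 0.86, 0.98 and 0.97 for Nlrp3. These ranks describe likeness over the same libraries and so share any difference in depth or GC trend between them, and no test was made of them.

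The wider pathway was read through 8 lists of 109 genes, of which 68 were listed and 65 tested. None of the 65 passed the adjusted threshold with limma, edgeR or DESeq2 (0 of 65), and 5 had an unadjusted p under 0.05, 3 of them lower in RragcS74N/+. By direction 40 were higher and 25 lower, the median log2 change was 0.05, and 2 did not overlap between genotypes. Over the whole table, the shares at the unadjusted threshold and without overlap were 5.81% and 1.69%.

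Of 7 inflammasome sensors and other NOD-like receptors tested, 4 were higher and 3 lower (median 0.06). Those with the smallest p were Nlrx1, a mitochondrial member of the NOD-like receptor family (20.6 ± 6.13 against 14.0 ± 6.77, log2 change -0.59), and Aim2, the sensor of cytosolic DNA (42.6 ± 12.5 against 32.2 ± 3.86, log2 change -0.36). Of 7 regulators of NLRP3 and pyrin, 4 were higher and 3 lower (median 0.13). P2ry2, a receptor for extracellular ATP and UTP, was at 29.7 ± 3.71 against 18.1 ± 2.71, a log2 change of -0.69, and its genotypes did not overlap (27.0 the lowest Rragc+/+ and 20.6 the highest RragcS74N/+ value), but its adjusted p was 0.713 (limma). Txnip, a thioredoxin-binding protein reported to engage NLRP3, was at 260 ± 181 against 343 ± 49.6, a log2 change of 0.70 inside a Rragc+/+ range of 88.8 to 528.

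Of 8 other caspases and gasdermins, 5 were higher and 3 lower (median 0.20). Casp8, which can cleave the same substrates and start apoptosis, was at 24.1 ± 6.71 against 14.0 ± 3.55 (log2 change -0.73), and Gsdme, the gasdermin cut by caspase-3, at 297 ± 52.1 against 381 ± 71.3 (log2 change 0.36). Gsdme had more 3′-end counts than Gsdmd in every library, the lowest Gsdme value being 221 and the highest Gsdmd value 109. Of 12 genes of ESCRT-III membrane repair, which removes gasdermin pores, 7 were higher and 5 lower (median 0.10), with Chmp1a at 253 ± 157 against 152 ± 17.1 (log2 change -0.57) and Chmp5 at 328 ± 134 against 441 ± 137 (log2 change 0.49). Of 6 guanylate-binding proteins and immunity-related GTPases, of which the former promote the sensing of lipopolysaccharide by caspase-11 and Irgm2 is known to restrain it, 5 were higher and 1 lower (median 0.14). Irgm2 was at 27.8 ± 12.4 against 44.1 ± 6.99 (log2 change 0.73) and Gbp9 at 14.3 ± 2.86 against 21.5 ± 2.78 (log2 change 0.57), and the genotypes of Gbp9 did not overlap (18.0 the highest Rragc+/+ and 18.6 the lowest RragcS74N/+ value).

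Of 4 other interleukin 1 family genes, 3 were higher and 1 lower (median 0.02). The receptor chain Il18r1 was at 18.3 ± 5.40 against 20.8 ± 3.57 (log2 change 0.20) and the cytokine Il18 at 14.7 ± 2.82 against 15.2 ± 4.0 (log2 change 0.03). Of 19 genes of interleukin 1 receptor signal transduction, 11 were higher and 8 lower (median 0.04), and the smallest p values belonged to Rbck1 (46.1 ± 17.9 against 25.9 ± 4.40, log2 change -0.73) and Sharpin (47.8 ± 5.94 against 38.5 ± 3.98, log2 change -0.30), which encode partners in the linear ubiquitin ligase. Another gene of that ligase in the list, Rnf31, was at 24.2 ± 5.28 against 24.6 ± 2.24 (log2 change 0.04, limma, adjusted p = 0.962). Of 2 serpins tested, which restrain serine proteases, 1 was higher and 1 lower (median 0.17): Serpinb1a was at 740 ± 208 against 957 ± 214 (log2 change 0.39) and Serpinb6a at 20.5 ± 7.38 against 19.1 ± 3.41 (log2 change -0.05; limma, adjusted p = 0.967). In each pair above the first value is the Rragc+/+ mean (SD, n = 5) and the second the RragcS74N/+ mean (SD, n = 4), and the adjusted p was 0.713 for all but Il18r1 (0.812) and Il18 (0.977) among the genes given with 2 per list (limma).

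**Figure D5:**
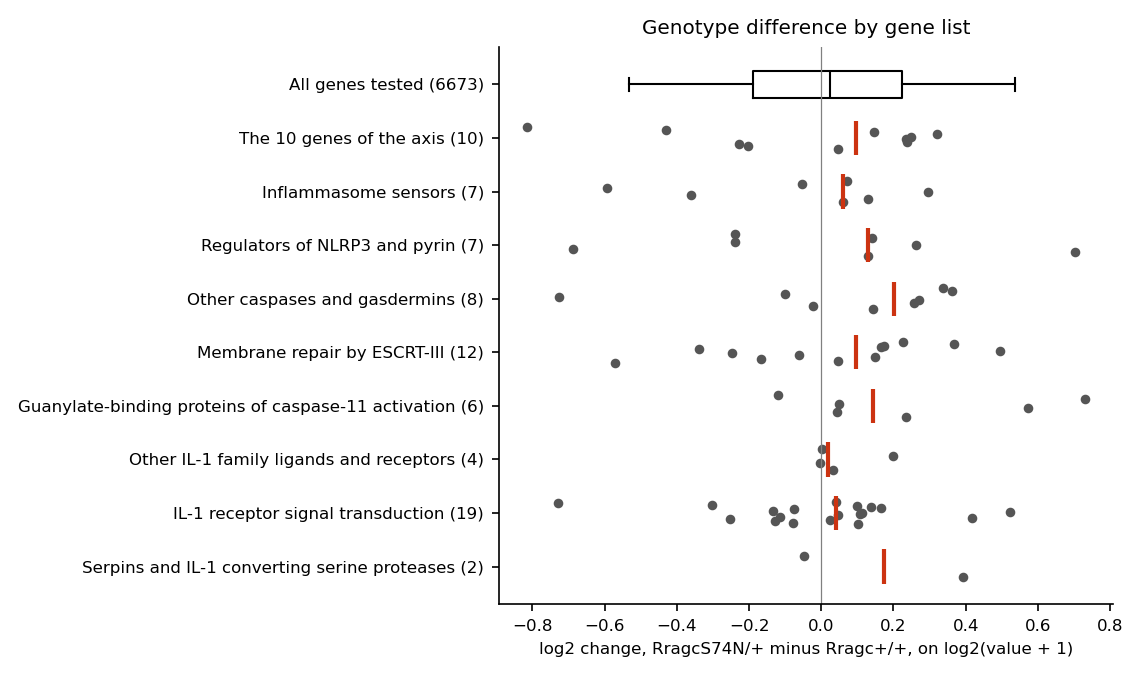
Log2 change (x axis, RragcS74N/+ minus Rragc+/+ on the log2(value + 1) scale) of each gene (points) by list, with the list median (vertical bar) and the number of genes tested in parentheses; the box spans the quartiles of all 6673 genes tested, its line the median and its whiskers the central 90%. The list named inflammasome sensors also holds other NOD-like receptors. The list medians lie between 0.02 and 0.20, and P2ry2 (-0.69) and Gbp9 (0.57) are the points whose genotypes did not overlap outside the 10 genes.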

How the data were processed

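Sorted neutrophils of 9 libraries were profiled by QuantSeq 3′ sequencing with molecular identifiers in the second-strand primers. Per the study's methods and the submitters' processing notes, the authors mapped reads with TopHat2 (version 2.0.10) on GRCm39, counted them by strand with HTSeq (version 0.6.1) on a GENCODE annotation and divided them by size factors, and this scaled signal is what they deposited. Whether reads were collapsed by identifier is not stated, so counting error is a lower limit.

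All values (100%) were whole multiples of 1 read, within 0.01 reads, and 16 pairs of libraries of one genotype differed beyond sampling noise (chi-square per degree of freedom at least 5.47), so none was a duplicate. The main test was limma (R 4.3.3, limma version 3.58.1) on log2(value + 1), pseudocount 1, for genes whose mean reached 10, with trended moderation, genotype as the 1 term, and Benjamini-Hochberg adjustment over 6673 genes at 0.05. edgeR (version 4.0.16) and DESeq2 (version 1.42.0, no adjusted p for 8 genes) were run on recovered reads as alternatives. Only the limma test was checked on simulated counts, and edgeR, DESeq2 and the permutation tests were not. The planted changes were larger than those of all 10 genes over the 9 libraries. The check therefore does not cover changes as small as theirs. GC content was that of the last 500 bases of GENCODE transcripts on GRCm38, for 7067 genes matched by symbol. The labels give no batch. The 10 genes, the lists and the tests were chosen with earlier results of these data known. Named genes are the 10, the 2 with the smallest p in each list of 3 or more tested genes, the 5 most alike to Il1b, Nlrp3 and Ninj1, the markers and Rragc. The serpins, Rnf31 and the comparison of Gsdme with Gsdmd were named after their values were seen. Values without the 3 libraries highest in eosinophil markers were added after seeing the data. The study's text describes more RragcS74N/+ mice than the libraries used here.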

Additional observations from a re-analysis of the deposited data

Results flagged for a closer look

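Among 32 groups of library values examined for a library standing apart (10 genes and 6 ratios in each genotype), 4 were found where about 1.6 would be given by chance, using the gap of the extreme library to its neighbor divided by the range (critical values 0.829 for 4 and 0.71 for 5 libraries). The ratios share values with the single genes and Ninj1 was selected on its values, so 4 against 1.6 is not a test of an excess. Ninj1 in RragcS74N/+ replicate 1 was at 47.1 normalized counts with the others at 90.9 to 96.4, a gap of 0.8888 of the range. Casp4 in RragcS74N/+ replicate 3 was at 69.3 with the others at 112 to 119, a gap of 0.861. The ratio of Casp4 to Casp1 reads was 0.789 in RragcS74N/+ replicate 1 and 0.284 to 0.361 in the other three, a gap of 0.8478. The ratio of Il1rn to Il1b reads was 0.302 in Rragc+/+ replicate 5 and 0.531 to 0.586 in the other four, a gap of 0.8069.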

How the results depend on the processing

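The number of genes with an adjusted p under 0.05 stayed at 0 under all 20 alternatives, for the whole table, the 10 genes and the 65 pathway genes. The count at an unadjusted p under 0.05 was 191 with a mean of at least 50, 769 with array quality weights and between 201 (without Rragc+/+ replicate 2) and 907 (without Rragc+/+ replicate 5) with 1 library left out, also moving to 641 and 224 without Rragc+/+ replicates 1 and 3 and to 256 and 224 without RragcS74N/+ replicates 2 and 4, and that of genes whose genotypes did not overlap was 56 with a mean of at least 50 and between 129 and 419 (without Rragc+/+ replicate 5). The second count was also higher without Rragc+/+ replicates 1 (295) and 4 (170) and RragcS74N/+ replicates 1 (213), 2 (217), 3 (293) and 4 (190), as fewer libraries have to separate. Directions of 7 of the 10 genes held under every alternative run, Ninj1 among them, which was selected for its direction in these same values. Il1b turned to -0.0229 after removal of the 3′ GC trend and ranged from -0.0599 (without RragcS74N/+ replicate 4) to 0.1792 (without RragcS74N/+ replicate 3) with 1 library left out, Casp4 turned to -0.0438 after removal of the GC trend, and Nlrp3 ranged from -0.0033 (without Rragc+/+ replicate 2) to 0.4374 (without Rragc+/+ replicate 1), with the cause not tested. With 1 library left out, Casp1 ranged from 0.0942 to 0.555, Pycard from 0.0979 to 0.405, Il1rap from 0.0453 to 0.4103, Casp4 from 0.0326 to 0.3247, Il1rn from -0.3393 to -0.1221, Il1r2 from -0.2861 to -0.1466, Gsdmd from -0.5661 to -0.2185 and Ninj1 from -0.9095 to -0.5692. Nlrp3 and Il1rap, with means under 50, have 19 alternatives each. Pairs passing adjustment numbered 2 with Spearman's rho and without Rragc+/+ replicate 2, and 3 with genotype means removed. The permutation on values with genotype means removed did not allow for that removal, so its p may be too small. No paired analysis was possible because replicates carry no numbers in the labels. Depth limited Il1rap most, with 14 reads in 1 library.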
